A study of Mus musculus with 6 samples.

Results

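The 10 loci described here are Fry, Ercc6l2, Rgs7bp, Gtpbp4, Npr3, Gpbp1, Tmprss9, Nrde2, Ptk2b and Il1rl2, which are 10 of the 21631 protein-coding genes of the mouse gene table. They were chosen as places where stromal cells of mice given doxorubicin (DOX) showed several stretches of open chromatin that mice given phosphate-buffered saline (PBS) lacked. The choice thus rested on the comparison of DOX with PBS, and every value of that comparison at these loci is given as a description, without a test. A locus holds each peak whose summit lies in the gene or within 100 kb of it, where no other protein-coding gene is nearer. The cells were mesenchymal stem and progenitor cells (MSPCs) of the bone marrow, sorted by red fluorescence from female mice of the genotype Lepr-Cre;LSL-tdTomato+/-. Lepr-Cre switches on the tdTomato reporter in any cell that has at some time expressed the leptin receptor, so the sort takes a lineage and not a single cell type. The 3 DOX libraries came from mice given 4 intravenous injections of 5 mg/kg doxorubicin at intervals of 1 week, and the 3 PBS libraries from mice given 4 injections of PBS. All mice were 8 to 10 weeks old when treated, carried the same reporter and were killed 8 weeks after treatment.

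ATAC-seq uses the transposase Tn5 to cut DNA that is not wrapped in nucleosomes, so a peak marks a promoter, an enhancer or another open element. Promoters of broadly used genes tend to stay open in most cells, while elements inside introns and between genes vary more with the state of a cell. Doxorubicin traps topoisomerase II on DNA, breaks the strands and can evict histones.

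The products of the 10 genes work in different places. At the cell surface, Npr3 is the clearance receptor that takes up natriuretic peptides and ends their signal, and mice without it have overgrown bones. Il1rl2 is the receptor for the interleukin 36 cytokines, and Tmprss9 is a serine protease anchored in the membrane. Ptk2b, also called Pyk2, is a cytoplasmic tyrosine kinase related to focal adhesion kinase that responds to calcium and integrins, and mice without it have more bone. Rgs7bp anchors R7 regulators of G protein signalling at the membrane, and Fry is a large scaffold protein that works with NDR kinases in cell shape and division. In the nucleus, Ercc6l2 is a SNF2-type helicase of DNA repair whose loss causes bone marrow failure in humans, and Gpbp1, or vasculin, binds GC-rich promoters. Nrde2 works with RNA surveillance factors, and Gtpbp4 is a GTPase that helps to assemble the large ribosomal subunit.

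The measurements are the authors' lists of peaks, called in each library alone, on build mm10. Deposited lists held 91026, 91060 and 100642 peaks in DOX libraries 1, 2 and 3, and 88348, 89264 and 65462 in PBS libraries 1, 2 and 3. The mean number of fragments per position, solved from the lists as a measure of depth, was 1.72, 1.67 and 2.22 in DOX and 1.27, 1.10 and 0.558 in PBS. Depth therefore moved with treatment, and depth and treatment cannot be told apart at any single region. To set lists of like length side by side, a peak counted as strong if its −log10 p was above that of the peak ranked 65462 in its library, which is the length of the shortest list. This left 63890 to 64782 strong peaks in the DOX libraries and 64769 to 64901 in the PBS libraries. Strong peaks of all libraries that shared at least 1 bp were merged into regions. A region is called DOX-only if the 3 DOX libraries each had a strong peak there and the PBS libraries had none. The reverse is PBS-only, a region with a strong peak in all 6 libraries is shared, and any other is mixed. Each peak carries the authors' fold enrichment, the pileup of fragments at its summit plus 1 over the background plus 1. Because the added 1 weighs more in a shallow library, pileup over background without it is also used and is named where it stands. A strong peak stood at least 12.2, 13.2 and 13.0 times above background in the DOX libraries and 13.4, 13.7 and 10.8 times in the PBS libraries. A peak below that level can still be listed, and a region with no peak was under the caller's threshold, not necessarily closed. PBS library 3 set the length of the lists, so only 693 of its peaks were listed without being strong. A DOX-only region could therefore hardly have a listed peak in that library.

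The 10 loci held 88 regions, of which 36 were shared, 34 mixed, 18 DOX-only and 0 PBS-only. DOX-only regions were thus 20.5% of the regions at these loci, beside 563 of 77364 regions, or 0.728%, over the genome, and the choice of the genes fixes that order. PBS-only regions over the genome numbered 256, or 0.331%. Fry held 3 DOX-only regions, more than any other gene. With peaks tied with the threshold kept, Fry held 2 and Ercc6l2 3, so this rank depends on the treatment of ties. Ercc6l2, Rgs7bp, Gtpbp4, Npr3, Gpbp1, Ptk2b and Il1rl2 held 2 each, Nrde2 held 1 and Tmprss9 held 0. At least 2 were thus found at 8 of the 10 genes, beside 20 of 15509 genes with a region, or 0.129%, and 488 genes, or 3.15%, held at least 1. Nrde2 and Tmprss9 did not gain several regions, whether peaks tied with the threshold were left out or kept, and for them the description of the group goes further than these lists. Without PBS library 3, the shallowest, Nrde2 held 2, Tmprss9 1 and Fry 4, the other counts per gene stayed as given, and the 10 loci held 21 in place of 18. With all deposited peaks the 10 loci held 8, at Npr3 (3), Ercc6l2 (2), Gpbp1 (2) and Il1rl2 (1), and only 3 of the 18 were among them, since the PBS libraries list weaker peaks at the others.

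Counting peaks rather than regions gave the same order of libraries at most of the genes. Fry had 21, 19 and 20 strong peaks in DOX libraries 1, 2 and 3, against 14, 15 and 16 in the PBS libraries. The lowest DOX count was above the highest PBS count. At Rgs7bp the count was 6, 6 and 6 in DOX and 3, 3 and 3 in PBS, and at Gtpbp4 it was 6, 6 and 6 in DOX and 4, 4 and 4 in PBS. Both genes gave a single value per group. Ptk2b had 8, 8 and 9 strong peaks in DOX and 6, 5 and 5 in PBS. Npr3 had 6, 4 and 6 in DOX and 3, 3 and 1 in PBS. Gpbp1 had 5, 5 and 5 in DOX and 3, 3 and 4 in PBS. The groups did not overlap at these 3 genes either. Nrde2, with 4, 4 and 5 in DOX and 2, 2 and 2 in PBS, and Tmprss9, with 3, 2 and 4 in DOX and 0, 1 and 1 in PBS, were separated too although they hold few DOX-only regions. Groups overlapped at Ercc6l2, with 16, 11 and 10 in DOX and 9, 11 and 9 in PBS, and at Il1rl2, with 4, 4 and 6 in DOX and 2, 6 and 2 in PBS. More strong peaks in every DOX than in every PBS library were thus found at 8 of the 10 genes. Over the genome this held for 271 of 15723 genes with a peak, or 1.72%, and the reverse for 271 as well, also 1.72%. In the full deposited lists it held for 4 of the 10 (Fry, Ercc6l2, Npr3 and Gpbp1), beside 6.26% of genes. Ercc6l2 thus separated the groups in the full lists alone. Rgs7bp, Gtpbp4, Tmprss9, Nrde2 and Ptk2b did so among strong peaks alone, and Il1rl2 in neither.

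**Figure D1:**
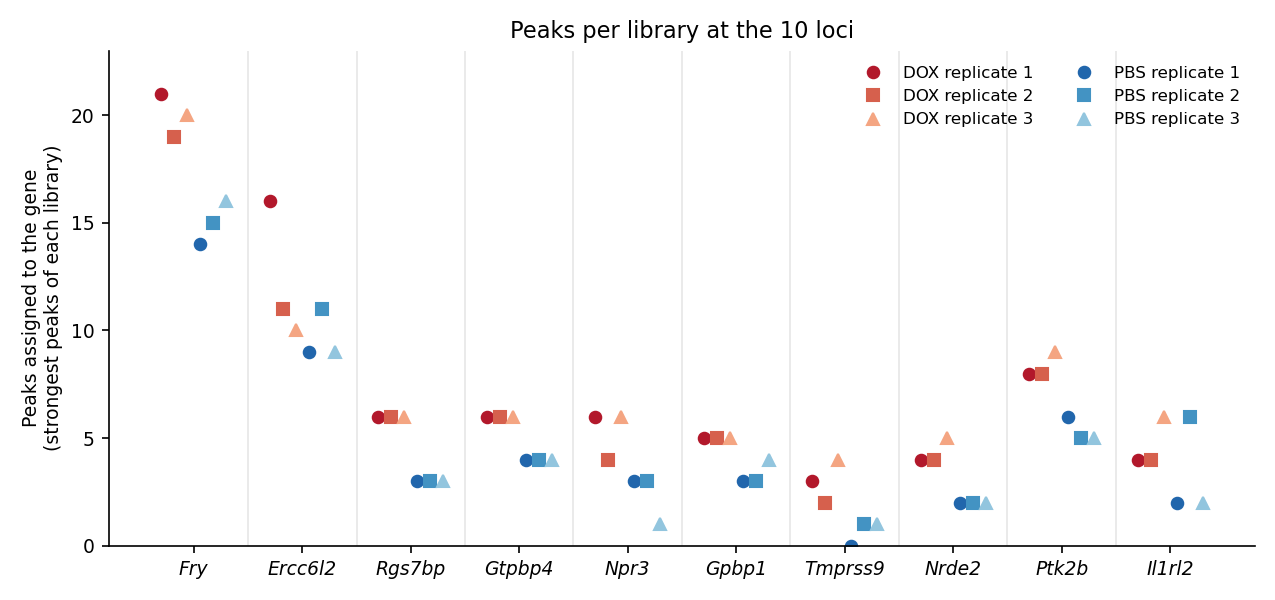
Strong peaks per library at each of the 10 loci, with DOX libraries left of PBS libraries and 1 point per library. Points of the groups are apart at 8 genes, while at Ercc6l2 and Il1rl2 a PBS library with 11 or 6 peaks lies among the DOX libraries.

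Promoter sequences, from 250 bases before to 50 after the annotated start, were found for 9 of the 10 genes in RefSeq (GRCm38.p6). Of these, 4 are printed because their peaks contrast. The starts of Npr3 (chr15:11907322-11907621, minus strand) and Rgs7bp (chr13:105054881-105055180, minus strand) were covered by modest peaks that were higher in DOX. Those of Ercc6l2 (chr13:63814990-63815289, plus strand) and Gpbp1 (chr13:111490078-111490377, minus strand) were covered by high peaks. In pileup over background, the Ercc6l2 peak was lower in every DOX library, and at Gpbp1 the groups overlapped. Capitals mark GC boxes, GGGCGG on either strand.
Npr3: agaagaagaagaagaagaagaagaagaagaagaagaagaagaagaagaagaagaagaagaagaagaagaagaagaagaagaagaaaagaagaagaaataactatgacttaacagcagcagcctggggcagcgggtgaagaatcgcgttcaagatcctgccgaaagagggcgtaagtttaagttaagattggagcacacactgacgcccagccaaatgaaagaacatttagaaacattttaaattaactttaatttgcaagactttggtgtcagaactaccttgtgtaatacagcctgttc
Rgs7bp: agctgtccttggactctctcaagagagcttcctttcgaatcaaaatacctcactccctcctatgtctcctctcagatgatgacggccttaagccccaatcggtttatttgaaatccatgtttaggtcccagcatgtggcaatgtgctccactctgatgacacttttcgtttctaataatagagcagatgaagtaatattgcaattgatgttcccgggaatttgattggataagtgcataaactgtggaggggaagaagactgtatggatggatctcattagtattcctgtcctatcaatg
Ercc6l2: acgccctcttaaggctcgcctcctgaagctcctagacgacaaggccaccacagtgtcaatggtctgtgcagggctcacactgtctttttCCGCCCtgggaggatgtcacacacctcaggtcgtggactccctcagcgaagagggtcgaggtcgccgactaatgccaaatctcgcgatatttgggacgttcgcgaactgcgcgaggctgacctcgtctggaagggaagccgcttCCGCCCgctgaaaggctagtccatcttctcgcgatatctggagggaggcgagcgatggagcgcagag
Gpbp1: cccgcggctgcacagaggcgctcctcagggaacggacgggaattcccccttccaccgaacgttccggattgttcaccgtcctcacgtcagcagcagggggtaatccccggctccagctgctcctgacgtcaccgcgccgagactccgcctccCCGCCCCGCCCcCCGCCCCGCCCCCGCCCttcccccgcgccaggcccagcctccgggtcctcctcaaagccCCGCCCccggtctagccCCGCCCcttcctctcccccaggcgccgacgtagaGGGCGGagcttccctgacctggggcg

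The Npr3 promoter had 39.0% G and C and the Rgs7bp promoter 42.7%, both under the lower quartile of all 21045 promoters (48.3%), and neither held a GC box. At the other promoters, those of Il1rl2, Gtpbp4 and Nrde2 had a strong peak in every library, that of Fry a strong peak in none, and that of Tmprss9 no listed peak. The Ercc6l2 promoter had 59.7% G and C with 2 GC boxes, and the Gpbp1 promoter 73.7% with 8, some of which share bases. The contrast among the printed promoters did not hold at all others. The Il1rl2 promoter had 43.7% G and C, under the lower quartile, with 1 GC box. In pileup over background the groups overlapped there. The Nrde2 promoter, at 55.7%, held 0 GC boxes and was lower in every DOX library by that measure. The Gtpbp4 promoter, at 62.3% with 1 GC box and lower in every DOX library by that measure, followed the contrast. By fold, the peaks at the Ercc6l2, Nrde2 and Gtpbp4 promoters were instead higher in every DOX library. GC boxes were in 5 of the 9 promoters, beside 46.7% of all promoters. Other motifs were searched on both strands, counted apart even where they shared bases. An E-box (CANNTG) was in 6 of 9 promoters, beside 69.0% of all, a RUNX motif (TGTGGT) in 2, beside 14.7%, and a cAMP response element (TGACGTCA) in 1, beside 2.26%. A kappa B motif was in 1, beside 23.3%, and a KLF motif (CCCCACCC) in 1, beside 11.1%. The AP-1 motif (TGANTCA) and the EBF motif were in 0 of 9, beside 7.04% and 0.965%. With 9 sequences these shares say little, and a match is only a match of letters.

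Npr3, on the minus strand of chr15:11839896-11907837, had the DOX-only region that stood highest of the 18. That region, chr15:11851852-11852214, is 363 bp wide and lies inside the gene, 12149 bp from its far end. Its fold enrichment was 16.9, 21.7 and 18.3 in DOX libraries 1, 2 and 3, against 6.17 and 5.25 in PBS libraries 1 and 2, with no peak in PBS library 3. As pileup over background these were 26.2, 34.1 and 26.1 in DOX and 10.2 and 9.12 in PBS. All DOX values were above the PBS values, with a ratio of 2.57 between the DOX median and the highest PBS value. It was the only DOX-only region at the 10 loci with at least 20 times background in all 3 DOX libraries.

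The other DOX-only region of Npr3, chr15:11903868-11904722, lies 3660 bp inside the gene from its start. Its fold was 9.93, 12 and 12.4 in DOX, against 6.17 and 4.77 in PBS libraries 1 and 2 and no peak in PBS library 3. DOX peaks there were 792, 855 and 779 bp wide and the listed PBS peaks 201 and 324 bp, so the PBS peaks were narrower as well as lower. Next to it, the region over the gene start, chr15:11906102-11907506, had a fold of 17.6, 26.2 and 36.9 in DOX, against 14.1 and 11.9 in PBS libraries 1 and 2, and again none in PBS library 3. As pileup over background the DOX values of 27.3, 41.3 and 53.1 lay above the PBS values of 24.4 and 21.9. In each DOX library it was 1 peak of 1345 to 1403 bp, while in both of these PBS libraries it was split into 2. The summit lay 1509 bp inside the gene, so the height is that of the first part of the gene and not of the promoter sequence printed above. Only 1 region of Npr3 was shared by all 6 libraries, chr15:11830627-11831110 beyond the far end of the gene. There the fold was 12.1, 12.3 and 20.8 in DOX and 7.93, 14.3 and 8.99 in PBS, and in pileup over background the groups overlapped. PBS library 3, the shallowest of the 6, listed a single peak at the whole locus, against 9 and 7 in PBS libraries 1 and 2 and 14, 14 and 18 in DOX.

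Il1rl2, on the plus strand of chr1:40324589-40367555, had the smallest DOX-only region, of 190 bp. This region, chr1:40378869-40379058, lies 11363 bp beyond the far end of the gene and had a fold of 11, 10.5 and 11.2 in DOX, with no peak in any PBS library. It is 1 of 3 among the 18 that no PBS library listed. The other, chr1:40359802-40360087 inside the gene, barely passed: its fold was 8.09, 8.61 and 9.62 in DOX, where the weakest strong peaks had 8.09, 8.61 and 9.31, against 5.73 and 6.68 in PBS libraries 1 and 2. The gene start was open in both groups, with 28.7, 26.2 and 28.5 in DOX and 30.0, 25.3 and 14.8 in PBS. In pileup over background it was 44.8, 41.3 and 40.9 in DOX and 52.8, 47.4 and 39.4 in PBS, and the groups overlapped. A shared region inside Il1rl2, chr1:40352050-40352359, was lower in every DOX library by that measure, at 18.0, 15.5 and 14.4 in DOX and 22.8, 19.2 and 21.5 in PBS. By fold the groups overlapped at this region, at 11.8, 10.1 and 10.2 in DOX and 13.2, 10.5 and 8.35 in PBS. In pileup over background the locus thus held regions in both directions.

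Tmprss9, on the plus strand of chr10:80871117-80899495, held 4 regions, all mixed and all inside the gene. A strong peak in all 3 DOX libraries was found in 2 of them. At chr10:80880339-80880607 the fold was 9.19, 11.2 and 12.4 in DOX, against 7.49 and 7.7 in PBS libraries 1 and 3 and no peak in PBS library 2. PBS library 3 passed its own lower threshold there, and in pileup over background its 19.7 was above the DOX values of 14, 17.3 and 17.5. At chr10:80898428-80898685 the fold was 12.9, 9.35 and 13.7 in DOX, against 7.05 and 12.9 in PBS libraries 1 and 2. The groups overlapped at both. The other 2 regions had strong peaks in 2 DOX libraries and in 1. No library had a peak at the promoter that RefSeq gives for this gene.

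At Ptk2b, chr14:66153257-66281100, the tallest regions were also higher in DOX. The shared region chr14:66230528-66231482 had a fold of 65.4, 77.8 and 91.8 in DOX, against 45.8, 32.9 and 17.3 in PBS. In pileup over background it was 103, 124 and 133 in DOX and 81.1, 62.0 and 46.6 in PBS, a ratio of medians of 2.00. The groups did not overlap, with the lowest value in the shallowest library. A second shared region, chr14:66241366-66242107, had a fold of 47.1, 56.5 and 53.4 in DOX and 24.7, 24.8 and 10.3 in PBS, and in pileup over background 73.8, 89.7 and 76.9 in DOX and 43.3, 46.5 and 26.9 in PBS. Its ratio of medians was 1.78, and again the groups were apart. The third that was higher in DOX without overlap, chr14:66199694-66200320, had a ratio of 1.35.

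The DOX-only regions of Ptk2b were weaker. The region chr14:66235233-66236033, between the 2 tall ones, had a fold of 11.4, 10.9 and 12.1 in DOX, against 7.05 in PBS library 1 and no peak in PBS libraries 2 and 3. It was 801 bp wide, with DOX peaks of 584, 662 and 801 bp, while PBS library 1 listed 2 peaks there, the stronger of them 244 bp wide. The region chr14:66175680-66175958 had 9.19, 8.61 and 10.9 in DOX and 7.49 and 7.16 in PBS libraries 1 and 2. Both of these PBS peaks were tied with the threshold of their library, and the ratio of 1.09 was the lowest of the DOX-only regions that PBS libraries listed. At the upper end of the gene, the mixed region chr14:66279126-66281168 had 12.5, 12.3 and 13.0 in DOX, against 7.93 and 7.16 in PBS libraries 1 and 2 and none in PBS library 3.

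**Figure D2:**
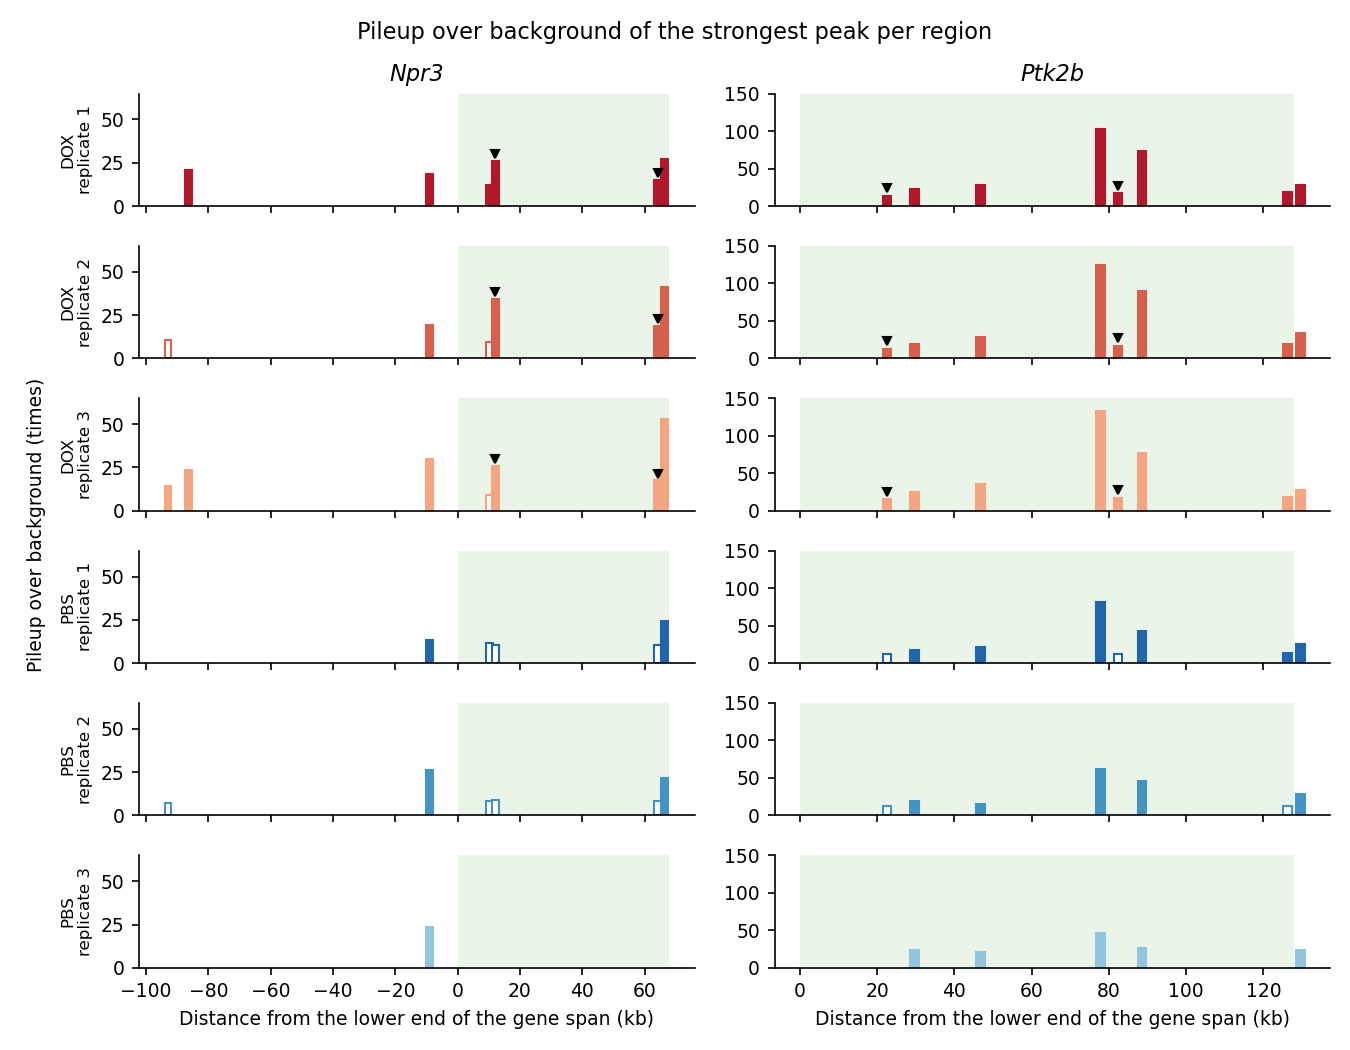
Peaks of the 6 libraries along Npr3 and Ptk2b, with distance in kb from the lower end of the gene span on the x axis and pileup over background of the strongest peak per region on the y axis. Each row is a library, DOX above PBS, hollow bars are listed peaks that were not strong, and triangles mark DOX-only regions. At Npr3 the regions that differ stand at up to 53.1 in DOX, whereas at Ptk2b the tallest region, at 103 to 133 in DOX and 46.6 to 81.1 in PBS, differs as well.

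Rgs7bp, on the minus strand of chr13:104945904-105054930, had both DOX-only regions near its far end. The region chr13:104944281-104944764, 1446 bp beyond that end, had a fold of 12.5, 10.5 and 13.7 in DOX, against 7.49 and 6.2 in PBS libraries 1 and 2. It lies 173 bp from a shared region, chr13:104943712-104944107, that had 29.0, 25.1 and 33.5 in DOX and 25.5, 22.9 and 12.8 in PBS. In pileup over background the groups overlapped at this neighbour. Inside the gene, chr13:104959734-104960065 had 10.7, 10.5 and 11.5 in DOX and 6.61 and 7.16 in PBS libraries 1 and 2. Each of the 2 regions had a PBS peak tied with the threshold.

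The region at the start of Rgs7bp, chr13:105054146-105055176, had a strong peak in all 6 libraries and was higher in DOX. It had a fold of 18.4, 23.9 and 22.3 in DOX, against 13.7, 11 and 7.06 in PBS. In pileup over background it was 28.5, 37.7 and 31.9 in DOX and 23.6, 20.1 and 17.9 in PBS, with a ratio of medians of 1.59. Its summit lay 258 bp inside the gene. Over the promoter window printed above itself, PBS library 2 listed only a peak of 5.25, which was not strong, and PBS library 3 listed none. A shared region inside the gene, chr13:104948024-104948358, was also higher in every DOX library, with a ratio of 1.33.

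Fry is the longest of the 10 genes, with a span of 379136 bp on the plus strand of chr5:150118618-150497753, and it held 22 of the 88 regions. Its clearest DOX-only region, chr5:150159155-150159551 inside the gene, had a fold of 9.19, 9.35 and 12.4 in DOX and 5.29 and 3.82 in PBS libraries 1 and 2. In pileup over background the DOX values of 14, 14.3 and 17.5 stood above the PBS values of 8.66 and 6.39, a ratio of 1.65. The others were close to the threshold in both groups. The region chr5:150464985-150465551 had 8.82, 9.73 and 10.9 in DOX and 7.05 and 7.16 in PBS. The region chr5:150116697-150117038, 1764 bp before the gene and 192 bp from a shared region, had 8.09, 9.35 and 10.9 in DOX and 6.61 and 7.16 in PBS. Its pileup over background of 12.2, 14.3 and 15.3 in DOX overlapped that of 11 and 12.8 in PBS, the only such overlap among the 15 that a PBS library listed. PBS library 3 listed none of these 3. The region at the lower end of the Fry span, chr5:150118244-150119325, was among the taller regions in each library, at 103, 110 and 138 in DOX and 83.7, 109 and 62.3 in PBS, and overlapped between the groups in pileup over background. The promoter that RefSeq gives for Fry and that was searched for motifs is another start, chr5:150259680-150259979, which lies 141312 bp inside the span and had no strong peak in any library. Of the 11 shared regions of Fry, 3 were higher in every DOX library by that measure, with ratios of 1.09, 1.23 and 1.34.

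Ercc6l2, on the plus strand of chr13:63810979-63900302, had 1 DOX-only region far from the gene and 1 inside it. The region chr13:63717169-63717602, 93614 bp before the gene, had a fold of 11.4, 11.6 and 9.62 in DOX, against 4.85 and 4.77 in PBS libraries 1 and 2. At that distance the assignment to Ercc6l2 rests only on its being the nearest protein-coding gene. Inside the gene, chr13:63869423-63869816 had 8.82, 10.1 and 11.2 in DOX and no peak in any PBS library. The region over its promoter, chr13:63814706-63815787, went opposite ways by fold and by pileup over background. Its fold was 142, 149 and 155 in DOX and 136, 140 and 96.3 in PBS, higher in every DOX library. As pileup over background this was 223, 237 and 225 in DOX and 242, 267 and 267 in PBS, lower in DOX in ratio (0.843) and in every library. In pileup over background, none of the 6 shared regions of Ercc6l2 was higher in every DOX library. By fold, this region and chr13:63918007-63919480 were, the latter at 17.6, 19.1 and 23.3 in DOX and 12.3, 16.7 and 5.78 in PBS.

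Gpbp1, on the minus strand of chr13:111425680-111490128, likewise kept a tall gene start in both groups. That region, chr13:111488565-111490859, had a fold of 106, 129 and 148 in DOX and 118, 130 and 84.1 in PBS, and in pileup over background 167, 206 and 215 in DOX and 210, 247 and 233 in PBS. The groups overlapped. Its DOX-only regions were far lower. Inside the gene, chr13:111461494-111461705 had 9.93, 11.6 and 15.8 in DOX and no peak in any PBS library. Beyond the gene start, by 65358 bp, chr13:111555336-111555616 had 11.4, 13.5 and 13.0 in DOX against 5.73 and 5.25 in PBS libraries 1 and 2, a ratio of 1.95. None of the 3 shared regions was higher in every DOX library.

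Gtpbp4, on the minus strand of chr13:8972070-8996116, had both DOX-only regions outside the gene, beyond its start. The DOX-only region chr13:9020241-9020462, 24224 bp away, had a fold of 11.8, 12.7 and 11.2 in DOX and 5.73 and 7.16 in PBS libraries 1 and 2. The other, chr13:9043769-9044054 at 47759 bp, had 14, 11.6 and 11.5 in DOX and 7.49 and 5.72 in PBS libraries 1 and 2. Each had 1 PBS peak tied with the threshold. Between them and the gene stood shared regions that moved in both directions in pileup over background, though not in fold. By pileup over background, chr13:9014428-9014787 was 42.4, 50.8 and 44.1 in DOX and 26.8, 37.4 and 28.7 in PBS, and chr13:9017175-9017650 was 90.7, 90.3 and 87.3 in DOX and 63.8, 79.4 and 55.6 in PBS. Both were higher in every DOX library, with ratios of 1.54 and 1.42. A few kilobases away, chr13:9011692-9012195 was lower in every DOX library, at 172, 170 and 190 in DOX and 224, 238 and 375 in PBS. By fold the groups overlapped at that region, at 109, 107 and 131 in DOX and 126, 125 and 135 in PBS. In pileup over background the gene start, chr13:8995477-8996692, was also lower in every DOX library, by a small margin. It stood at 199, 201 and 208 in DOX and 216, 223 and 212 in PBS. By fold it was higher in every DOX library, at 126, 126 and 144 in DOX and 121, 117 and 76.4 in PBS.

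Nrde2, on the minus strand of chr12:100125450-100160414, had 1 DOX-only region, chr12:100167977-100168899, 7923 bp before its start. Its fold was 8.46, 8.98 and 9.93 in DOX and 6.17 and 6.68 in PBS libraries 1 and 2. It was the widest of the 18, at 923 bp, and the ratio to the higher PBS value was 1.16. At the neighbouring mixed regions all 3 DOX libraries had a strong peak too, but so did PBS libraries 1 and 2 at chr12:100166218-100166541 and PBS library 3 at chr12:100179053-100179342. The gene start, chr12:100159327-100160006, was 143, 154 and 151 times background in DOX and 160, 166 and 206 times in PBS, lower in every DOX library. By fold it was higher in every DOX library, at 90.8, 96.9 and 105 in DOX and 89.9, 87.3 and 74.5 in PBS. The direction there thus depends on the measure.

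Seen together, the 18 DOX-only regions were modest peaks. Their median width was 352 bp, from 190 to 923 bp, beside 332 bp in the other 545 DOX-only regions of the genome. Median pileup over background in the DOX libraries was 16.6 at these and 15.5 at the others. Of the 18, 10 lay inside genes (55.6%, beside 60.7% of the others) and 0 at a gene end (beside 8.81%). A PBS library listed a weaker peak at 15 of the 18, or 83.3%, beside 86.6% of the others. PBS libraries 1 and 2 listed 15 and 14 of them, and PBS library 3, with the fewest fragments, listed 0. The 0 is nearly fixed in advance, because only 693 peaks of PBS library 3 were listed without being strong. At 14 of these 15 the lowest DOX value was above the highest listed PBS value in pileup over background, beside 448 of 472 at the others. The definition nearly fixes this order. A PBS peak that was not strong stood at most 12.8 times above background, and a strong DOX peak at least 12.2 times. The median ratio was 1.42, from 1.09 to 2.57, beside 1.36 at the others. In 7 of the 18, at Fry, Rgs7bp, Gtpbp4 and Ptk2b, a PBS peak was tied with the threshold, and 11 were free of such ties.

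**Figure D3:**
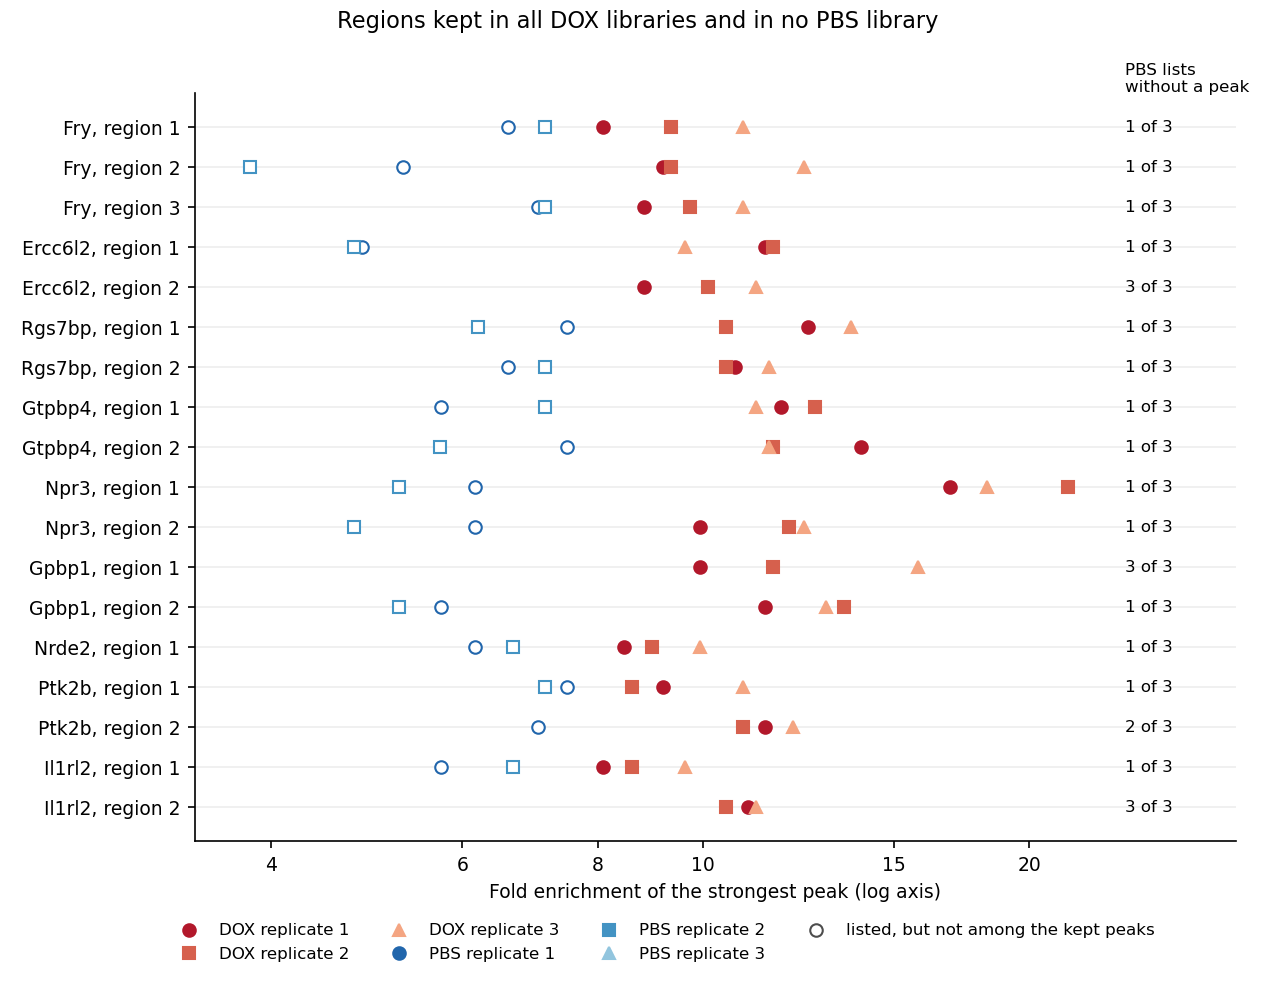
The authors' fold enrichment of each of the 18 DOX-only regions, numbered within each gene from low to high coordinate, with 1 point per library. Hollow points are listed peaks that were not strong. The listed PBS points lie at 3.82 to 7.49 and the DOX points at 8.09 and above, a gap that the definition of a DOX-only region sets. The first Npr3 region stands apart with 16.9 to 21.7 in DOX.

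The 36 shared regions give the same comparison where every library has a strong peak. By pileup over background 10 of them, or 27.8%, were higher in every DOX than in every PBS library, beside 4568 of 48708 shared regions of the genome, or 9.38%. These 10 stood at Fry (3), Ptk2b (3), Rgs7bp (2) and Gtpbp4 (2). By the same measure, another 5 were lower in every DOX library, beside 2593 over the genome, or 5.32%. These 5 stood at Gtpbp4 (2), Ercc6l2 (1), Nrde2 (1) and Il1rl2 (1). Ratios of medians ran from 0.721 to 2.00 with a median of 1.07, beside 1.03 over the genome. In pileup over background, already open regions were thus also higher in DOX at Ptk2b, Rgs7bp and Fry, and moved in both directions at Gtpbp4. No shared region was higher in every DOX library by this measure at Ercc6l2, Npr3, Gpbp1, Nrde2 and Il1rl2, and Tmprss9 had no shared region. By fold, none of the 5 regions named as lower was lower in every DOX library. Those over the Ercc6l2, Gtpbp4 and Nrde2 promoters were higher in every DOX library, and at the others the groups overlapped. The grouping of Ercc6l2, Gtpbp4 and Nrde2 thus depends on the measure. The genes were chosen on these libraries, so nothing is read from the difference to the background.

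**Figure D4:**
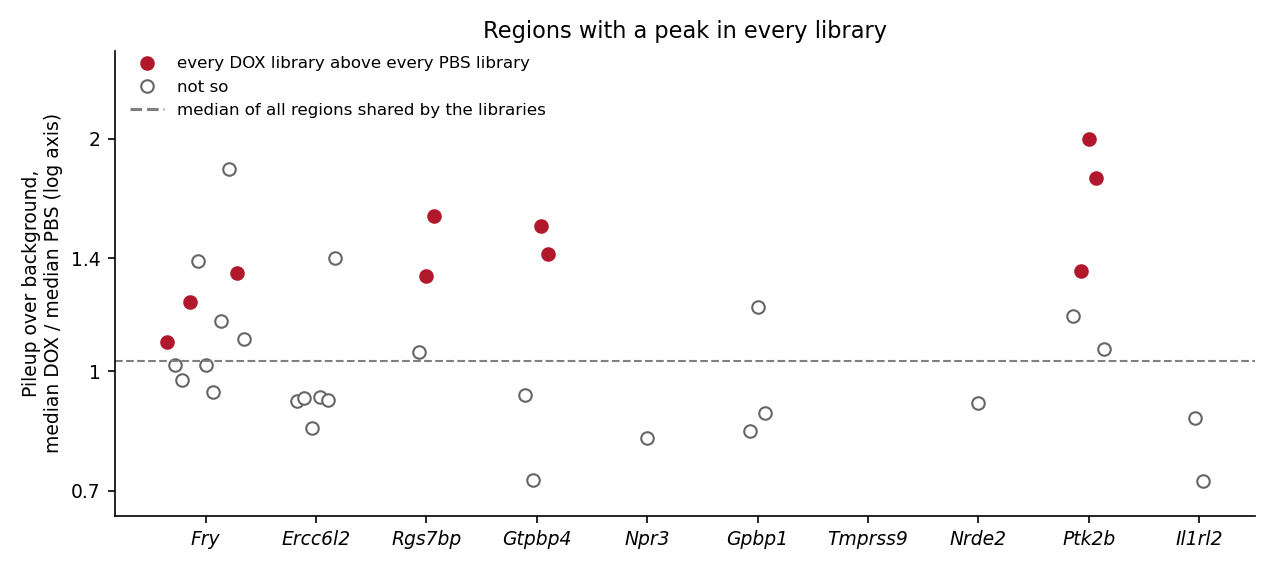
Ratio of the DOX median to the PBS median in pileup over background for the 36 shared regions, by gene, with 1 point per region, filled where every DOX library was above every PBS library, and the median of all shared regions as a dashed line. The highest points are 2 regions of Ptk2b at 1.78 and 2.00 and 1 of Fry at 1.83, in which the groups overlapped. The lowest are at Il1rl2 and Gtpbp4, at 0.721 and 0.723.

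Genes of the same families and pathways were counted in the same way. Of 58 such genes, 56 matched the gene table and 52 had a strong peak. More strong peaks in every DOX than in every PBS library were found at 2 of the 52, and fewer at 1, beside 1.72% of all genes in each direction. Il1r1, the interleukin 1 receptor gene that neighbours Il1rl2, had 18, 16 and 16 in DOX and 14, 15 and 15 in PBS. Rgs6, an R7 regulator of G protein signalling, had 3, 2 and 2 in DOX and 1, 1 and 0 in PBS, and held 1 DOX-only region. In the other direction, Rgs9 had 15, 16 and 15 in DOX and 17, 17 and 17 in PBS. For each of the 3 an exact two-sided permutation test gave p = 0.10, the smallest that 3 against 3 libraries allow, before any adjustment for the 52 genes. Fryl, the relative of Fry, also held 1 DOX-only region. The natriuretic peptides and their other receptors (Nppa, Nppb, Nppc, Npr1 and Npr2) and the focal adhesion kinase genes (Ptk2, Pxn, Src, Grb2 and Cbl) held 0, and none of them separated the groups. The median difference of DOX from PBS was 0 peaks over the family genes, as over all genes.

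Markers of the sorted cells were open in both groups. Of 10 MSPC genes, 10, 10 and 10 had a strong peak at a gene end in DOX and 10, 10 and 9 in PBS. Of 6 B cell genes it was 3 in each DOX and 2 in each PBS library, with Cd79a, Cd79b and Ms4a1 without a peak in any. The B cell genes held 1 DOX-only and 0 PBS-only regions and the MSPC genes 4 and 1. Of 7 myeloid genes it was 3, 2 and 3 in DOX and 3, 3 and 3 in PBS, without a peak at Itgam, Lyz2 and Mpo. Of 6 erythroid genes it was 3, 3 and 3 in DOX and 2, 3 and 3 in PBS, without one at Gata1, Hba-a1 and Hbb-bs. Endothelial genes gave 2, 1 and 1 of 6 in DOX and 1, 2 and 1 in PBS, and T and NK genes 1 of 5 in each library. Strong peaks assigned to the MSPC genes numbered 167, 178 and 165 in DOX and 161, 179 and 233 in PBS. PBS library 3 thus stood apart from its own group at these genes. The part of other cells in the regions above was not tested, and whether more cells were open or each cell was more open cannot be told apart in such libraries.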

How the data were processed

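ATAC-seq was done on sorted tdTomato+ marrow cells, with 3 DOX and 3 PBS libraries, and groups and replicate numbers came from the titles. How many mice stand behind a library is not stated, so the spread is that between libraries. The authors deposited 1 peak list per library, on build mm10 per the submitters' processing notes, which list Bowtie2 2.4.5, Picard 2.10.9 and MACS2 2.2.7.1 with no role or order. Peak calling settings, Tn5 shift and read filters are not stated in the labels. The deposited columns give a fold enrichment (a ratio), a −log10 p and a −log10 q, none of them scaled between libraries by the authors. The last deposited column, the summit's offset in bp (another kind of value), served to place peaks, and the authors' score column was not used.

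Background per library was solved from fold and −log10 p under the Poisson model of MACS2, and 100.0% of pileups with a −log10 p under 200 were then whole to within 0.05. Lists were to be cut to the 65462 strongest peaks, the length of the shortest. Ties at that rank (693 to 2723 peaks a library) would have been split by chromosome order, so tied peaks were left out. This was decided after the data were seen, and both other ways of treating ties were run. Summits went to the nearest protein-coding gene of RefSeq GRCm38.p6, the assembly behind mm10, and a summit inside several genes counted for each. A gene end is within 1 kb of either end of the span. Exons, introns and UTRs were not told apart, and region sequences were not used here. The 10 genes, the family genes, the markers and the motifs were chosen with earlier results of these data known. All 10 genes are named, with each of their DOX-only regions, as are family genes whose groups did not overlap. Family genes had an exact two-sided permutation test, and nothing else was tested. Alternatives changed the peak list, overlap, peak width, window, shared spans, ties and libraries. The region counting was tested on simulated peaks. Python 3.11.15, pandas 2.3.3 and scipy 1.17.1 were used.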

Additional observations from a re-analysis of the deposited data

How the results depend on the processing

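At the 10 loci, 18 DOX-only regions were counted. The number was 8 with all deposited peaks, 5 with the strongest 40000 of each library, and 1 with peaks at least 20 times background. It stayed within 13 to 19 under the other alternatives that kept all libraries, and was 19 to 22 when 1 library was left out. Over the genome, 563 became 2151 with all deposited peaks, 361 at 20 times background, and 864 to 1329 without 1 library. PBS-only regions at the 10 loci stayed at 0, and were 0 to 1 without 1 library.

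Genes with at least 2 DOX-only regions numbered 8, but 3 with all deposited peaks, 1 with the strongest 40000, 0 at 20 times background, 4 with a window of 10 kb and 5 with tied peaks kept (8 to 9 without 1 library). With ties kept, Rgs7bp and Gtpbp4 held 0, Ptk2b 1, Fry 2 and Ercc6l2 3. Genes with more strong peaks in every DOX library numbered 8, but 4 with all deposited peaks, 4 with the strongest 40000 and 0 at 20 times background (8 to 10 without 1 library). Family genes numbered 2, but 1 with ties kept and 0 with ties split by file order (2 to 3 without 1 library). Of the 18 regions themselves, 11 were DOX-only again with ties kept, 3 with all deposited peaks, 1 at 20 times background and 0 with the strongest 40000, so the 5 counted there are other regions. The cause of these shifts was not tested.

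No paired analysis was possible because the labels do not say that libraries with the same number share a litter, batch or day. No model was fitted at the 10 loci. Depth limits all of this: the weakest listed pileup was 8 to 9 fragments in DOX and 5 to 7 in PBS, and a region without a peak has no value.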

Other observations

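Besides the 8 genes described, 12 genes held 2 DOX-only regions. Cxcl12, the chemokine that retains blood stem cells and a defining gene of these stromal cells, was among them, singled out after its values were seen. It had 19, 19 and 16 strong peaks in DOX and 21, 22 and 36 in PBS, so its total was lower in every DOX library although 2 of its regions were DOX-only. Pik3r1, a regulatory subunit of phosphoinositide 3-kinase, had 42, 42 and 47 in DOX and 40, 39 and 35 in PBS. Of the 12, 6 had more strong peaks in every DOX than in every PBS library.

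Ercc6l2, Rgs7bp, Gtpbp4 and Gpbp1 all lie on chromosome 13. DOX-only regions were 1.05% of the 3522 regions of that chromosome, beside 0.728% over the genome. The share on chromosome 13 was 1.28% with ties split by file order, where PBS libraries 1 and 2 kept tied peaks only up to chromosome 12 of the file, and 0.907% with all ties kept. No test was run on this.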
